A study of Homo sapiens with 4 samples.

Results

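CYP1B1 and 6 other genes of the aryl hydrocarbon receptor system, CYP1A1, AHR, ARNT, AHRR, TIPARP and ALDH3A1, were measured after transfection of miR-489 or miR-504 into a pair of head and neck squamous carcinoma cell lines. Every non-control spot whose gene name was one of these 7 was taken, which gave 9 probes of 41000 on the array and 7 of 30982 gene names. CYP1B1 was selected on its measured ratios, at least 4-fold below the control on both miR-489 arrays, so its values after miR-489 are described here without a test. The other 6 genes were taken for their known place in the pathway, with earlier results of these data known.

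The aryl hydrocarbon receptor, encoded by AHR, is a ligand-activated transcription factor that is held in the cytoplasm by chaperones until it binds dioxins, polycyclic aromatic hydrocarbons such as those of tobacco smoke, or natural indoles. It then enters the nucleus, pairs with ARNT and binds short DNA elements with the core GCGTG, which induces CYP1A1, CYP1B1, AHRR, TIPARP and, in some cells, ALDH3A1. The products of AHRR and TIPARP feed back on the receptor, whereas CYP1A1 and CYP1B1 oxidise its ligands and, in the case of CYP1B1, also oestradiol.

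FaDu, a line derived from a hypopharyngeal squamous cell carcinoma (HSCC), and HSC3, a line derived from a tongue squamous cell carcinoma, were each transfected with miR-489 or miR-504. Total RNA was collected 72 h after transfection and carried Cy5, and its partner on each array, labelled with Cy3, came from cells of that line that had received a control miRNA. There were 4 arrays in all, 1 for each line and miRNA, on 1 slide, and the dyes were not swapped. No label says whether the control RNA of the 2 arrays of a line came from 1 culture. With 1 array per line and miRNA, the lines served as the replicates of each miRNA (n = 2). The p-values measure only the spread between these 2 lines, which may be technical, and so few arrays limit the precision. Where 1 array was left out, its miRNA kept 1 array, so the measured spread came from the other miRNA alone.

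The values are log2 ratios of Cy5 over Cy3 after subtraction of the local background, with the median of each array set to 0, so that values under 0 stand for a lower signal in cells given the miRNA. A probe printed at several spots varied by 0.0517 to 0.058 (SD, log2 scale) within an array, over 193 to 205 such probes per array. Each probe of the 7 genes had 1 spot, and the intensities given are spot medians less the local background. None of these spots was saturated or marked as an outlier. Markers of squamous epithelium were bright in every control channel (8 of 8 on the array of 9 listed were well above background in both lines, with a summed Cy3 intensity of 121297 to 163858), whereas the sums of the listed fibroblast, immune and endothelial markers were 77 to 164, 112 to 202 and 64 to 99. Of these markers 0 of 5, 1 of 4 and 0 of 3 were above background in FaDu, and 1 of 5, 1 of 4 and 0 of 3 in HSC3. For orientation, PTPN11, which the study examined as a miR-489 target, had log2 ratios of −3.25 in FaDu and −3.22 in HSC3 after miR-489 and of −1.29 and −1.04 after miR-504, while GAPDH lay at 0.83 to 1.03 and ACTB at 0.80 to 1.10 over the 4 arrays.

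The mature miRNAs are shown with their seed in capitals, since the seed is the stretch (bases 2 to 8) that pairs with a target mRNA. The labels name no arm, so both arms of miR-504 that the RefSeq table (GRCh38.p14) holds are given, and the arm of miR-489 that it holds.
hsa-miR-489-3p: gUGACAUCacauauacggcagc
hsa-miR-504-5p: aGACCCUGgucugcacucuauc
hsa-miR-504-3p: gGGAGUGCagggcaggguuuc
They lie at chr7:93483947-93483968, chrX:138667760-138667781 and chrX:138667724-138667744, each on the minus strand. The 3 seeds differ from each other. The mRNA letters that pair with them are GAUGUCA for miR-489-3p, CAGGGUC for miR-504-5p and GCACUCC for miR-504-3p. Transcript sequences were not searched for these letters here. The study itself lists CYP1B1 among the genes lowered by miR-489 in FaDu, with miR-489 target sites predicted by TargetScan.

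CYP1B1, a cytochrome P450 that hydroxylates polycyclic aromatic hydrocarbons and oestradiol, had its lowest signals in both miR-489 transfectants. Its single probe (A_23_P209625, NM_000104) read a Cy3 intensity of 243.5 on the FaDu miR-489 array, 251.5 on the FaDu miR-504 array, 242.5 on the HSC3 miR-489 array and 567 on the HSC3 miR-504 array. The Cy5 intensities, in the same order of arrays (FaDu before HSC3, and miR-489 before miR-504 within a line), were 74.5, 375, 67.5 and 400. The low values were thus the 2 Cy5 channels of miR-489, which did not overlap with any other channel. The log2 ratio after miR-489 was −2.29 in FaDu and −2.43 in HSC3, that is 4.89-fold and 5.39-fold below the control, with a mean of −2.36 ± 0.0991 (SD, n = 2 lines). The mean was −1.66 with the normexp correction, −1.71 without background subtraction and −1.61 with normexp followed by loess, all short of the 4-fold limit (−2 on the log2 scale). A fall of at least 4-fold on both miR-489 arrays was met by 0.138% of probes (30 of 21684), a count that the choice of CYP1B1 rests on. The next lowest values after miR-489 among the measured probes of the 7 genes were those of an AHRR probe, at −1.66 and −1.20, well short of that limit in HSC3. In a bulk culture, fewer cells with the transcript and less transcript per cell cannot be told apart.

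After miR-504 the log2 ratio of CYP1B1 was −0.07 in FaDu and −0.95 in HSC3. Both values were higher than either value after miR-489. The test pools the spread of both miRNAs, so for CYP1B1 it draws on the miR-489 values on which the gene was chosen (SD 0.0991). The miR-504 values alone had an SD of 0.619, so the SE and p-values given here are not independent of that choice. With the pooled spread, the fall against the control did not pass the test after miR-504 (mean −0.51, SE 0.208, limma adjusted p = 0.0936). It passed with the cell line as a block (limma adjusted p = 0.0274), with normexp followed by loess (limma adjusted p = 0.0336) and with total-signal normalisation (limma adjusted p = 0.0425). The value was −0.95 without FaDu miR-504 and −0.07 without HSC3 miR-504, each from 1 array. The HSC3 value was thus the larger part of that mean.

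Relative to the median probe of each channel, the Cy5 levels of CYP1B1 ran from −3.17 (HSC3 miR-489) and −2.90 (FaDu miR-489) to −0.66 (HSC3 miR-504) and −0.63 (FaDu miR-504). The last 2 lay close together, but the spread of single-channel levels between arrays or cultures was not measured. The Cy3 levels were −0.60, −0.51 and −0.45 for the HSC3 miR-489, FaDu miR-489 and FaDu miR-504 controls and 0.37 for the HSC3 miR-504 control. The control of the HSC3 miR-504 array was therefore the highest of all 8 channels for this gene.

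**Figure D1:**
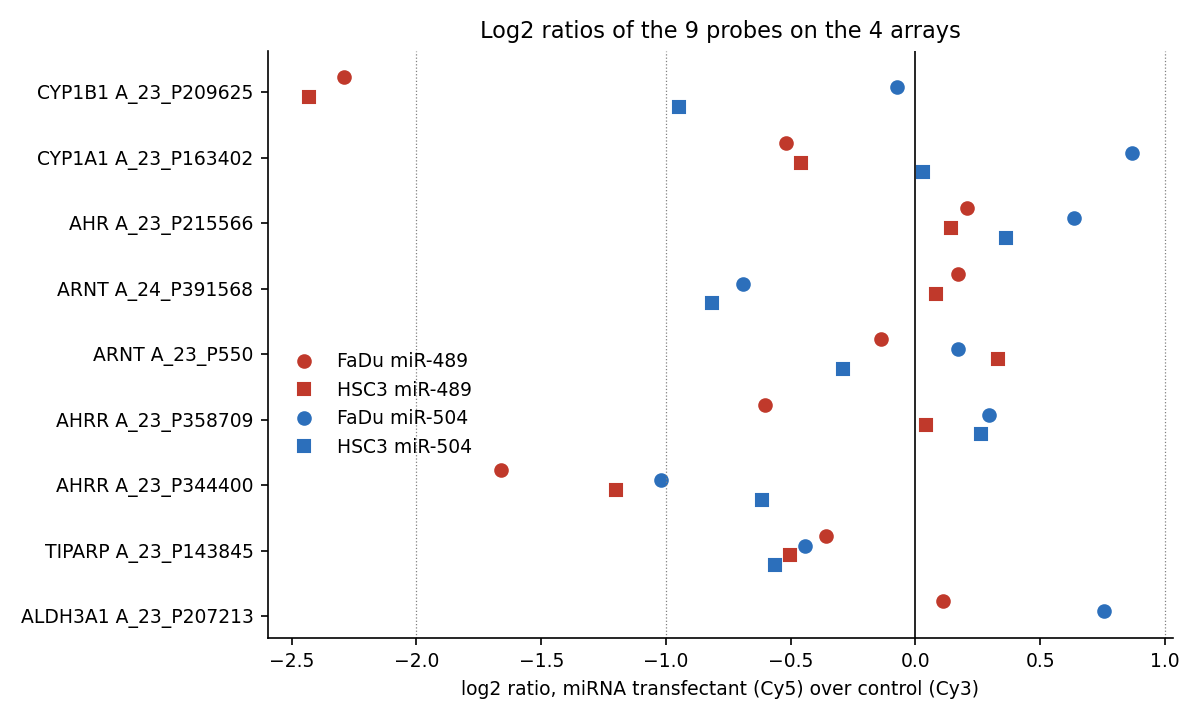
Log2 ratios of the miRNA transfectant (Cy5) over the control (Cy3) for the 9 probes, 1 row per probe. Circles are FaDu and squares HSC3, red is miR-489 and blue miR-504, and dotted lines mark 4-fold lower, 2-fold lower and 2-fold higher. CYP1B1 lies at −2.29 and −2.43 after miR-489, to the left of every other value, and ALDH3A1 is shown for FaDu only because it was not well above background in HSC3.

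The other xenobiotic-metabolising enzymes differed from CYP1B1 in their ratios to the control. CYP1A1, the most strongly receptor-induced P450 in many cell types, had Cy3 intensities of 686.5, 1109, 200 and 742 and Cy5 intensities of 716.5, 3175, 218.5 and 1031 in this order of arrays (probe A_23_P163402, NM_000499). In each line both channels were lower on the miR-489 array than on its miR-504 counterpart. The log2 ratios were −0.52 in FaDu and −0.46 in HSC3 after miR-489, and 0.87 and 0.03 after miR-504.

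Neither change of CYP1A1 against the control passed the test. The mean was −0.49 after miR-489 (SE 0.199, limma adjusted p = 0.0867) and 0.45 after miR-504 (SE 0.199, limma adjusted p = 0.116). The fall after miR-489 passed with the cell line as a block (limma adjusted p = 0.0431) and in 4 other of the 14 alternatives, with adjusted p from 0.0163 to 0.282 over all of them. The HSC3 value after miR-504 changed sign with the normalisation, from −0.16 with total-signal normalisation to 0.11 without background subtraction.

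ALDH3A1, an aldehyde dehydrogenase that clears aldehydes and is receptor-inducible in liver, differed between the lines (probe A_23_P207213, NM_000691). In FaDu the Cy3 intensities were 701.5 and 311 and the Cy5 intensities 1132 and 823.5 on the miR-489 and miR-504 arrays, with log2 ratios of 0.11 and 0.75. In HSC3 the intensities were 19 and 22 in Cy3 and 0 and 4 in Cy5, none of them well above background, and no ratio is given. The gene was therefore measured in FaDu only and stayed out of the limma fit. The mean FaDu control level, centred on the channel median, was at least 24.1-fold above the HSC3 mean. An HSC3 level under the dimmest detected probe of that array was raised to that probe's level. The 2 FaDu controls themselves differed by 2.24-fold, so that figure holds for the means only.

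**Figure D2:**
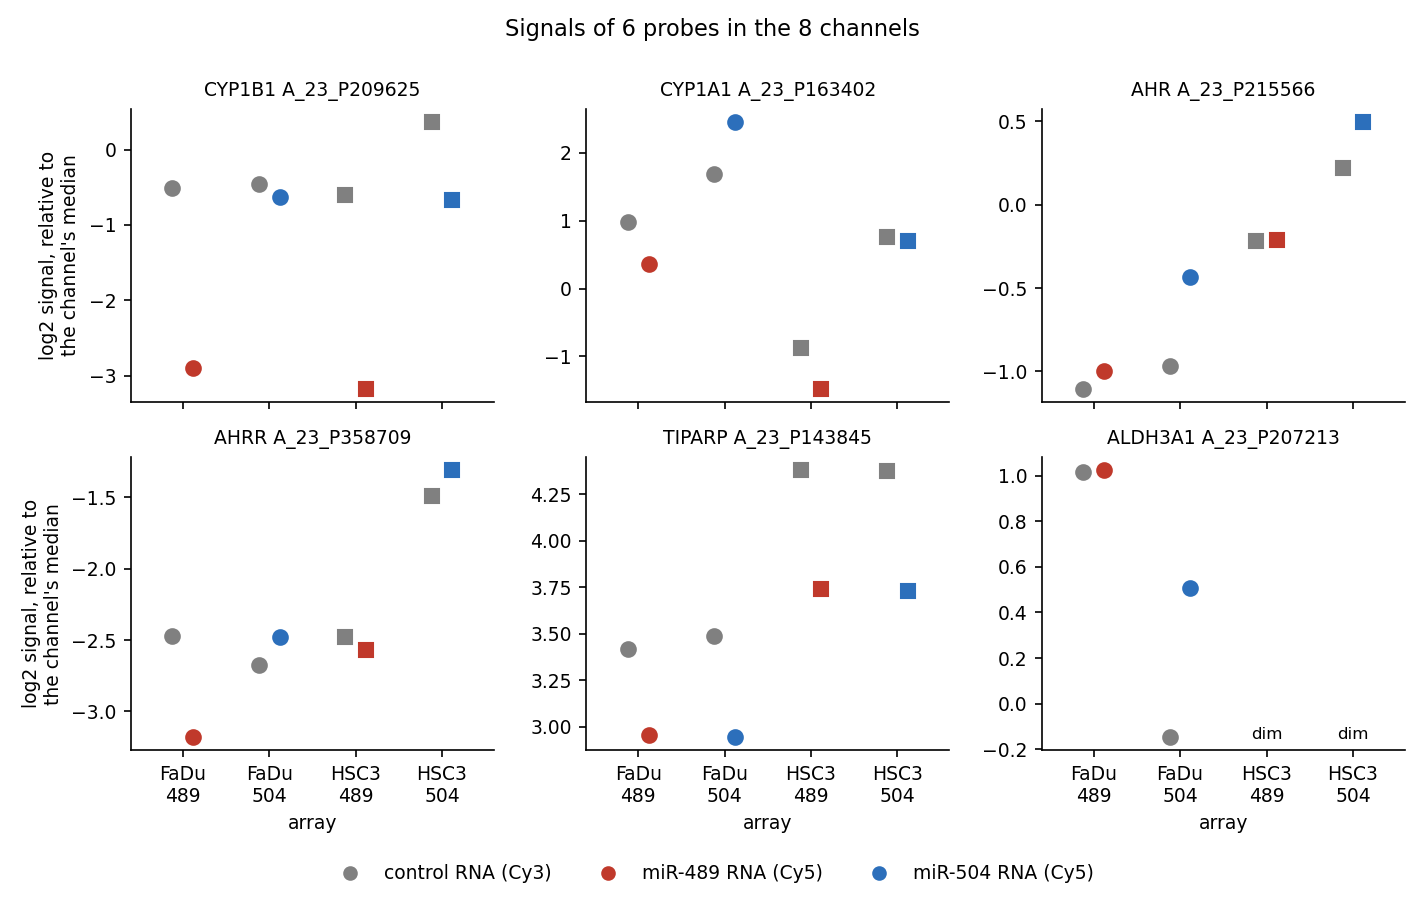
Signals of 6 probes on the log2 scale, relative to the median probe of each channel, by array. Grey points are the control RNA (Cy3), red points miR-489 RNA and blue points miR-504 RNA (Cy5), circles are FaDu and squares HSC3, and "dim" marks arrays where the probe was not well above background. For CYP1B1 only the 2 red points are low (−2.90 and −3.17), whereas for CYP1A1 the control also was lower on the miR-489 array of each line.

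The receptor itself was measured by 1 probe (A_23_P215566, NM_001621). AHR had Cy3 intensities of 161.5, 176, 317 and 511 and Cy5 intensities of 278.5, 429, 525 and 895 in the array order used above. The HSC3 channels were brighter than the FaDu channels of the same dye. The log2 ratios were 0.20 and 0.14 after miR-489 and 0.63 and 0.36 after miR-504, in FaDu and HSC3.

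AHR rose against the control after miR-504 (mean 0.50, SE 0.0965, limma adjusted p = 0.0113, higher in 2 of 2 lines). The call was lost without FaDu miR-504 (0.36, limma adjusted p = 0.121) and with no filter on dim probes (limma adjusted p = 0.0603). After miR-489 the mean was 0.17 (limma adjusted p = 0.177) and its sign turned with total-signal normalisation (−0.02). The difference between the miRNAs, −0.32, did not pass the test (SE 0.137, limma adjusted p = 0.296).

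ARNT, the partner that the receptor needs to bind DNA and that also pairs with hypoxia-inducible factors, had 2 probes for NM_001668 that did not give the same picture. Probe A_24_P391568 had Cy3 intensities of 44.5, 53, 61 and 104 and Cy5 intensities of 75, 51.5, 97 and 80.5, in the array order used above. Its log2 ratios were 0.17 and 0.08 after miR-489 and −0.69 and −0.82 after miR-504, in FaDu and HSC3. Of the 7 tested probes of the other 6 genes it alone was called between the miRNAs (0.88 higher after miR-489, SE 0.116, limma adjusted p = 0.0486, higher in 2 of 2 lines), where 1.07% of all probes were called (223 of 20914).

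That call of ARNT rested on the processing. The adjusted p was 0.0345 with the cell line as a block, but 0.0581 with the normexp correction, 0.111 without background subtraction, 0.0555 with normexp followed by loess, 0.0534 with total-signal normalisation and 0.459 with no filter on dim probes, and from 0.105 to 0.279 when any 1 array was left out. The fall against the control after miR-504 (mean −0.75, SE 0.0817, limma adjusted p = 0.00257) passed in all 14 alternatives. The other probe, A_23_P550, had Cy3 intensities of 72, 52, 48 and 70 and log2 ratios of −0.14, 0.17, 0.33 and −0.29 in that order of arrays, and passed none of the 3 tests (limma adjusted p = 0.633 and 0.781 against the control and 0.777 between the miRNAs).

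AHRR, the repressor that competes with the receptor for ARNT, also had 2 probes with different values. Probe A_23_P344400 (NM_020731) had Cy3 intensities of 65.5, 73, 62 and 72.5 and Cy5 intensities of 31, 56.5, 40.5 and 64.5, arrays ordered as above. All 4 log2 ratios were negative, at −1.66 and −1.20 after miR-489 and −1.02 and −0.61 after miR-504. Probe A_23_P358709 (AB033060) had Cy3 intensities of 62.5, 54, 66 and 156.5 and Cy5 intensities of 61.5, 104, 102 and 255.5, with log2 ratios of −0.60 and 0.04 after miR-489 and 0.29 and 0.26 after miR-504.

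By the first of these probes AHRR fell against the control after miR-489 (mean −1.43, SE 0.154, limma adjusted p = 0.00187) and after miR-504 (mean −0.82, SE 0.154, limma adjusted p = 0.0105). The size of the first fall depended on the background correction and was −0.74 with normexp and −0.46 with normexp followed by loess. The second was lost with no filter on dim probes (limma adjusted p = 0.0622) and without FaDu miR-504 (limma adjusted p = 0.101). The second probe passed neither test (limma adjusted p = 0.188 and 0.203), and neither probe passed between the miRNAs (−0.61, limma adjusted p = 0.238, and −0.56, limma adjusted p = 0.283).

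TIPARP, a mono-ADP-ribosyltransferase that dampens receptor activity, had the smallest difference between the miRNAs of the tested probes (probe A_23_P143845, NM_015508). Its Cy3 intensities were 3711.5, 3859.5, 7659 and 9118.5 and its Cy5 intensities 4326, 4456, 8107 and 8408, arrays ordered as above. The log2 ratios lay between −0.36 and −0.56, at −0.36 and −0.50 after miR-489 and −0.44 and −0.56 after miR-504. TIPARP fell against the control after miR-489 (mean −0.43, SE 0.0851, limma adjusted p = 0.01) and after miR-504 (mean −0.50, SE 0.0851, limma adjusted p = 0.00768), and the difference between the miRNAs was 0.07 (SE 0.12, limma adjusted p = 0.808). The calls were lost when a single array of the same miRNA was left out, after miR-489 without HSC3 miR-489 (limma adjusted p = 0.0666) and after miR-504 without either array (limma adjusted p = 0.0602 and 0.0885), and with no filter on dim probes after miR-489 (limma adjusted p = 0.051).

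Over the other 6 genes, 2 of 7 tested probes were called lower against the control after miR-489 (AHRR and TIPARP) and 0 higher, where limma called 57.1% of all probes, 26.5% lower and 30.5% higher. After miR-504, 4 of 8 tested probes were called, 3 lower (ARNT, AHRR and TIPARP) and 1 higher (AHR), where 49.6% of all probes were called, 23.4% lower and 26.2% higher. These 8 include CYP1B1, which was not called and which the 7 leave out, so the 2 shares cover unlike sets. Both directions together, the members' share was near that of the whole array after miR-504 and below it after miR-489, and a ratio against 0 keeps a probe's own dye effect because no dyes were swapped. The difference between the miRNAs is free of an effect common to all arrays, and there 0.76% of all probes were lower after miR-489 and 0.306% higher. Total-signal normalisation moved the share of lower calls over the whole array from 46.5% to 67.5% of those called after miR-489 and from 47.1% to 70.5% after miR-504.

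By the simple limit of 2-fold on 1 array, the probes of the 7 genes that were lower numbered 2 in FaDu after miR-489 (CYP1B1 and AHRR, against 8% of all probes), 2 in HSC3 after miR-489 (CYP1B1 and AHRR, against 7.63%), 1 in FaDu after miR-504 (AHRR, against 5.51%) and 0 in HSC3 after miR-504 (against 4.66%). CYP1B1 was chosen on its fall on both miR-489 arrays, so its place in the first 2 of these counts was fixed in advance. AHRR was the only other gene in them. The group had 9 probes, and that of ALDH3A1 was not measured in HSC3. No probe of the group was at least 2-fold higher on any array (0, against 2.91%, 2.77%, 2.32% and 1.9%, for miR-489 in FaDu and HSC3 and then miR-504).

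The Cy3 signals of the control RNA differed between the 2 arrays of a line for some of these genes. In HSC3 the CYP1A1 control signal, centred on the channel median, was 3.11-fold lower on the miR-489 array than on the miR-504 array, that of AHRR probe A_23_P358709 was 1.99-fold lower and that of CYP1B1 1.96-fold lower. In FaDu the control of CYP1A1 was 1.63-fold lower on the miR-489 array, that of ALDH3A1 2.24-fold higher, and that of CYP1B1 differed by 1.04-fold. Over all probes 1.62% of HSC3 controls and 0.641% of FaDu controls were at least 2-fold apart, and 0.684% and 0.292% at least 2-fold lower on the miR-489 array. The control of TIPARP differed by 1.05-fold in FaDu and by a log2 difference of 0.0045 in HSC3. The part of these control differences in the ratios was not tested.

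Because the controls differed, the Cy5 signals of the 2 miRNA transfectants of a line were also compared directly, a comparison chosen after the values were seen. CYP1B1 was 4.85-fold lower after miR-489 than after miR-504 in FaDu (log2 difference −2.28) and 5.67-fold lower in HSC3 (−2.50), against 4.64-fold and 2.79-fold by the ratios to the control (−2.22 and −1.48). CYP1A1 was 4.27-fold lower in FaDu (−2.09) and 4.52-fold lower in HSC3 (−2.18), against 2.61-fold and 1.40-fold by the ratios (−1.39 and −0.49). Both P450 genes were thus lower by a similar factor in each line on this scale, which leaves out the control. The control of CYP1A1 was also lower on the miR-489 array, by 1.63-fold in FaDu and 3.11-fold in HSC3. That of CYP1B1 was lower by 1.04-fold and 1.96-fold. CYP1B1 was moreover chosen on its values after miR-489, so the likeness of the 2 genes was not tested. A fall of at least 2-fold between the Cy5 signals was found for 2.47% of all probes in FaDu and 3.13% in HSC3, and between the ratios for 2.17% and 1.62%.

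In a limma fit of the Cy5 signals with the line as a block, CYP1A1 had a mean difference of −2.13 (SE 0.139, limma unadjusted p = 4.38e-05, adjusted p = 0.0621). No probe of the array passed after adjustment in that fit (0 of 20914, 0%), although 4076 had an unadjusted p under 0.05. By the ratios to the control, the CYP1A1 difference was −0.94 (SE 0.281, limma adjusted p = 0.187, and 0.104 with the block). A lower CYP1A1 signal after miR-489 than after miR-504 was therefore seen in both lines by both routes and passed the threshold in neither. The 2 routes share the same Cy5 values, and the control signal of CYP1A1 was also lower on the miR-489 array of each line.

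The other genes did not share 1 direction in the Cy5 comparison. The Cy5 signal of AHR was lower after miR-489 than after miR-504 by 0.57 in FaDu and 0.71 in HSC3 on the log2 scale. The 2 AHRR probes were lower by 0.70 and 1.26 (A_23_P358709) and by 0.81 and 0.61 (A_23_P344400). TIPARP differed by 0.01 in each line. The ARNT probes were higher after miR-489, A_24_P391568 by 0.60 in FaDu and 0.33 in HSC3 and A_23_P550 by 0.15 and 0.28. ALDH3A1, measured in FaDu only and outside the fit, was higher by 0.51. In this fit the adjusted p was 0.133 for AHR, 0.115 and 0.122 for the AHRR probes, 0.217 and 0.46 for the ARNT probes and 0.971 for TIPARP (limma), so none of them passed.

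**Figure D3:**
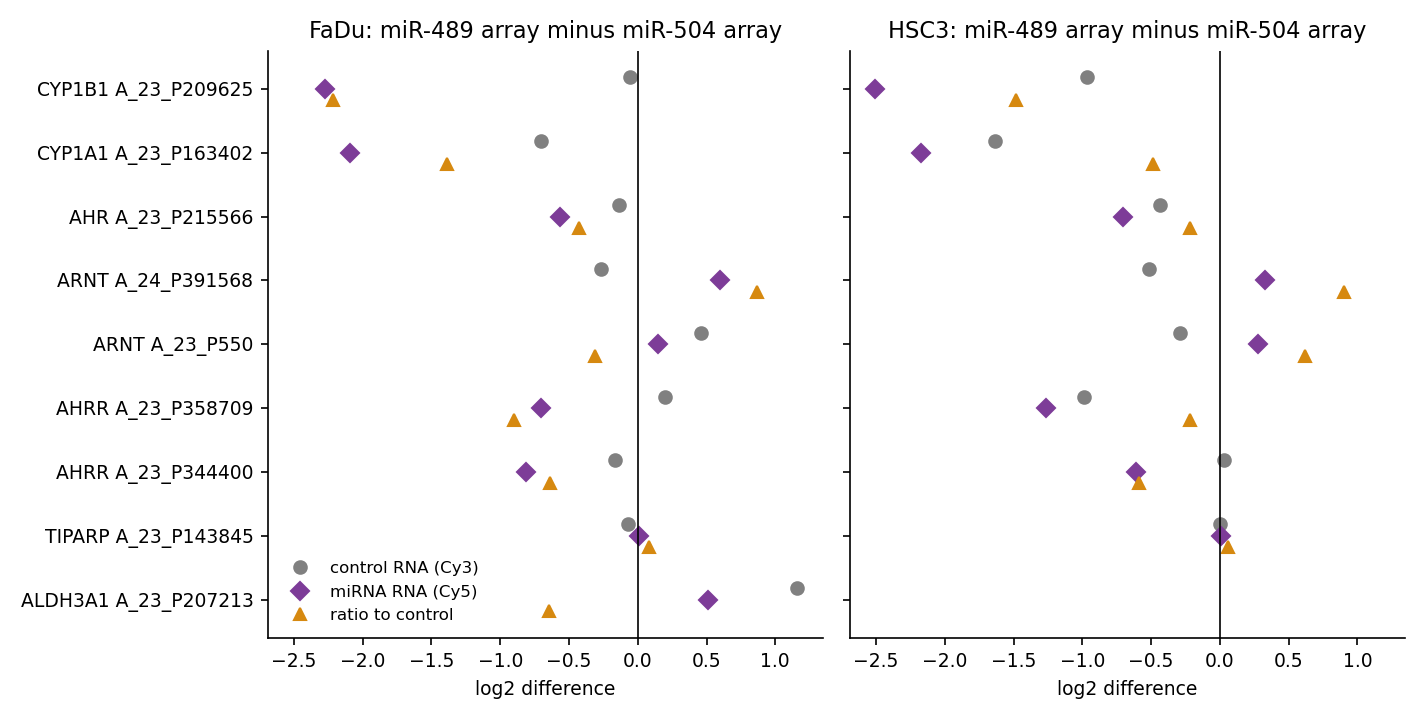
Log2 differences between the miR-489 and the miR-504 array of each line, for the control RNA (grey circles), the miRNA RNA (purple diamonds) and the ratio to the control (orange triangles), with FaDu on the left and HSC3 on the right. The Cy5 signals of CYP1B1 and CYP1A1 lie between −2.50 and −2.09 in both lines, while in HSC3 the control is also lower for CYP1B1 (−0.97) and CYP1A1 (−1.64).

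The lines also differed at baseline, with 1 array-averaged control level per line and no test. The mean control level of AHR was 2.05-fold higher in HSC3 than in FaDu and that of TIPARP 1.90-fold higher. The mean level of CYP1A1 was 2.64-fold higher in FaDu and that of CYP1B1 1.29-fold higher in HSC3, but the 2 HSC3 controls themselves differed by more than that, 3.11-fold and 1.96-fold. Of all probes, 21.1% were at least 2-fold apart between the lines.

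**Figure D4:**
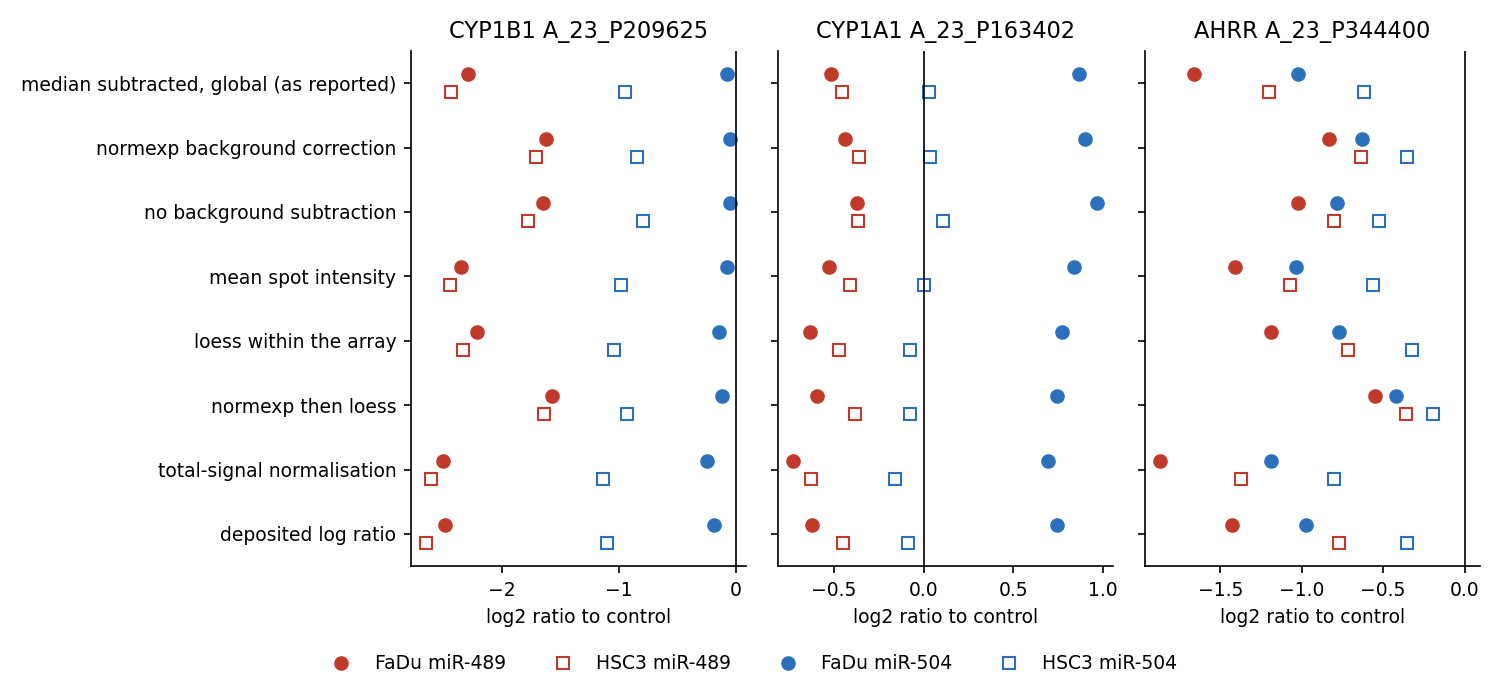
Log2 ratios to the control of CYP1B1, CYP1A1 and the AHRR probe A_23_P344400 on the 4 arrays (filled circles FaDu, open squares HSC3, red miR-489, blue miR-504), 1 row per way of computing the ratio. CYP1B1 stays between −2.65 and −1.57 after miR-489 and AHRR runs from −1.87 to −0.55 in FaDu after miR-489, while CYP1A1 stays below 0 after miR-489.

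The genes whose 4 log2 ratios lay nearest those of CYP1B1, by Euclidean distance among 15731 other genes over the 4 arrays, were THC2376015 (distance 0.481), AK124281 (0.568), SUZ12 (0.588), RP11-11C5.2 (0.656) and AP1M2 (0.723). SUZ12, a subunit of Polycomb repressive complex, had log2 ratios of −2.53 and −2.40 after miR-489 and −0.43 and −0.55 after miR-504 in FaDu and HSC3. AP1M2, an epithelial subunit of a clathrin adaptor complex, had −2.41 and −2.31 after miR-489 and −0.22 and −0.26 after miR-504. The study lists SUZ12, RP11-11C5.2 and AP1M2, like CYP1B1, among genes lowered by miR-489 in FaDu that hold predicted miR-489 target sites. The distances use the miR-489 ratios on which CYP1B1 was chosen. That no other gene of the receptor group was among these 5 thus follows largely from that choice.

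The receptor binds the core GCGTG, so the promoters of the group in RefSeq (GRCh38.p14, 250 bases before to 50 after each start) were read for it on both strands. The core, in capitals with up to 15 bases on each side, is shown for the induced genes, and CACGC is the same core on the opposite strand.
CYP1A1, chr15:74725566-74725600, minus strand: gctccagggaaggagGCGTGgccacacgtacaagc
AHRR, chr5:321669-321703, plus strand: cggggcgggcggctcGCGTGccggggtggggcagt
AHRR, chr5:322553-322587, plus strand: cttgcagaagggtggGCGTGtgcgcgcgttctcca
TIPARP, chr3:156674367-156674401, plus strand: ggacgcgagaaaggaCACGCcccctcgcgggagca
TIPARP, chr3:156674433-156674467, plus strand: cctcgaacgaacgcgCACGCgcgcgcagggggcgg
The core lay 57 bases before the start in CYP1A1. GCGTG was found in 36.5% of all 35116 promoters of that length (12832), so a match is common. The longer letters TNGCGTG, which contain the core, were in 5.51% of promoters, and in this group in 1 AHRR promoter only. The ARNT promoter held the core 0 times, AHR once, after its start. Both TIPARP matches lay in 1 promoter, and the TIPARP promoters at chr3:156674676-156674975 and chr3:156676414-156676713 held the core 0 times. A further AHRR match near the edge of its window is not shown. The table held 5 of the 7 genes, without CYP1B1 and ALDH3A1.

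Other genes of the pathway were read from lists, each gene by its brightest probe. These lists were chosen with earlier results of these data known, so their counts are descriptive. Of 17 other receptor-responsive genes 13 were measured, and 9 of these had a lower ratio after miR-489 than after miR-504 in both lines (69.2%, against 29.9% of 15732 measured genes) and 1 a higher one (7.69%, against 35.2%), with a median difference of −0.48 in FaDu and −0.13 in HSC3 (0.02 in each line over all genes). The counts take the sign alone and include differences near 0, such as −0.008 for EREG in FaDu. By the test of the difference 0 of 13 passed in either direction, where 0.782% of all genes were called lower and 0.305% higher. The lowest means after miR-489 were those of VAV3, a guanine nucleotide exchange factor (−1.34), and the cytokine IL1B (−1.18), and the highest those of the amino acid transporter SLC7A5 (0.87) and the quinone reductase NQO1 (0.41). VAV3 differed between the miRNAs by −1.53 in FaDu and −0.01 in HSC3 (limma adjusted p = 0.324). IL1B differed by −0.68 and −1.01 (limma adjusted p = 0.122).

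Of the receptor complex and its cofactors 14 of 15 genes were measured, 5 lower and 4 higher after miR-489 than after miR-504 in both lines (35.7% and 28.6%, against 29.9% and 35.2% of all genes), and 0 passed the test. The lowest means after miR-489 were those of the Mediator subunit MED1 (−0.96) and the corepressor NRIP1 (−0.76), and the coactivator NCOA1 had one of the highest (0.63). NRIP1 differed between the miRNAs by −0.82 in FaDu and −0.44 in HSC3 (limma adjusted p = 0.111).

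Among ARNT partners and related bHLH-PAS factors 6 of 11 genes were measured and 1 passed the test, where 0.305% of all genes were called higher and 0.782% lower. With no filter on dim probes, or by direct Cy5 signals, 0 probes of the whole array were called between the miRNAs. EPAS1, a hypoxia-inducible factor alpha subunit that was singled out after its values were seen, was higher after miR-489 than after miR-504, with log2 ratios of 0.27 and 0.26 after miR-489 and −0.86 and −0.76 after miR-504 in FaDu and HSC3 (difference 1.08, limma adjusted p = 0.0349). NPAS3 was lowest after miR-489 (mean −1.40) but as low after miR-504 (−1.56 and −1.38). ARNTL2 was next (0.16), and the clock genes ARNTL (1.10) and CLOCK (0.34) were highest. CLOCK differed between the miRNAs by −1.14 in FaDu and −0.57 in HSC3 (limma adjusted p = 0.0964).

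The hypoxia-responsive genes, which ARNT serves with other partners, lay near the whole array. Of 12 genes 11 were measured, 4 lower and 4 higher after miR-489 in both lines (36.4% each, against 29.9% and 35.2% of all genes), with median differences of 0.04 in FaDu and −0.06 in HSC3, and 0 passed the test. The lowest means were those of ANKRD37 (−1.21) and the lactate dehydrogenase subunit LDHA (−0.48), and the highest those of VEGFA (1.0) and ADM (0.34), which encode secreted angiogenic factors. LDHA differed by −0.66 in each line (limma adjusted p = 0.161).

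The remaining 3 lists hold relatives of CYP1A1, ALDH3A1 and TIPARP. Of 35 other P450 genes and partners 13 were measured and 0 passed the test. CYP4F2 (−1.61) and CYP4V2 (−0.95) had the lowest means after miR-489, and CYP51A1 of sterol synthesis the highest (0.73). CYP4F2 was as low after miR-504, at −1.61 in FaDu and −1.52 in HSC3.

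Of 13 aldehyde dehydrogenases 8 were measured and 1 passed the test, where 0.305% of all genes were called higher and 0.782% lower. That call too was lost with no filter on dim probes and by direct Cy5 signals. ALDH9A1 had log2 ratios of 1.0 in FaDu and 1.27 in HSC3 after miR-489 and −0.97 and −0.39 after miR-504 (difference 1.82, limma adjusted p = 0.044). ALDH1A3 was high after both miRNAs (mean 1.23 after miR-489), and ALDH3B1 (−1.03) and ALDH2 (−0.53) had the lowest means. ALDH3B1, from the same subfamily as ALDH3A1, differed between the miRNAs by −0.54 and −0.89 (limma adjusted p = 0.0866). All 12 PARP family genes were measured and 0 passed the test, with the lowest means for PARP10 (−1.01) and PARP14 (−0.87) and the highest for PARP8 (0.97) and PARP12 (0.69).

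**Figure D5:**
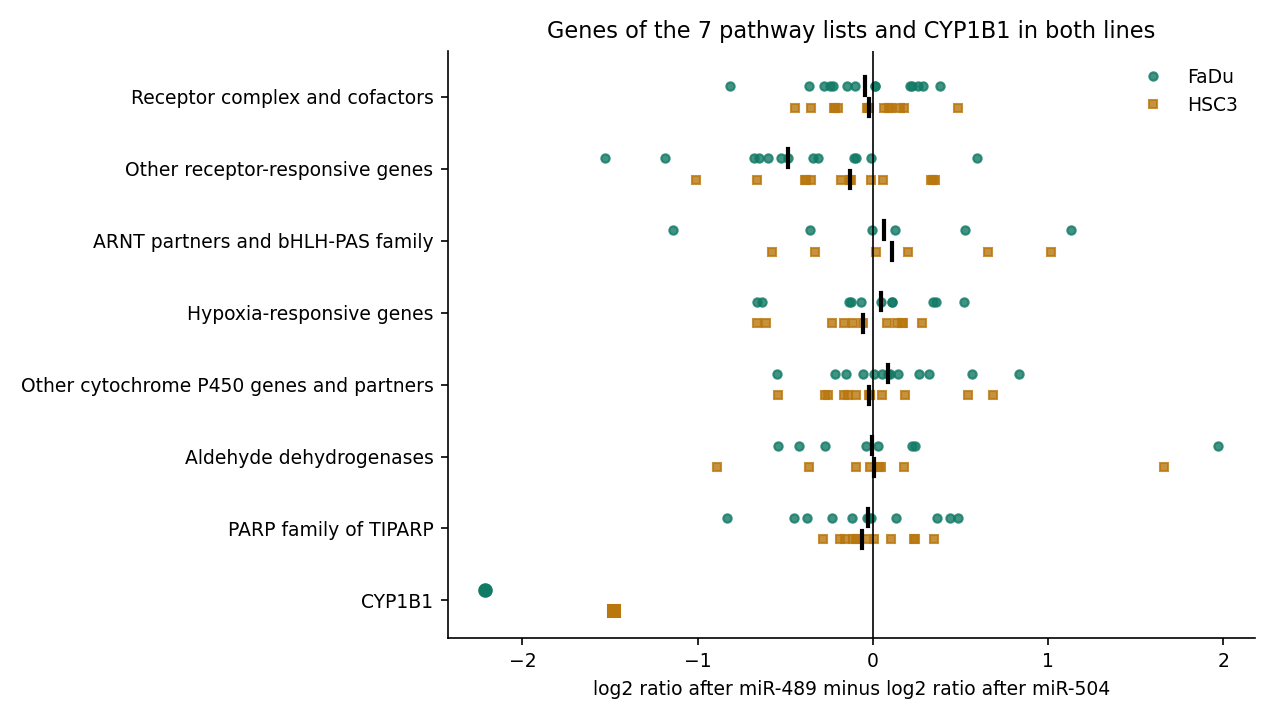
Log2 ratio after miR-489 minus log2 ratio after miR-504 for each measured gene of the 7 lists and for CYP1B1, with green circles for FaDu, ochre squares for HSC3 and black bars for the median of each list in each line. The list of other receptor-responsive genes has medians of −0.48 and −0.13, and CYP1B1 lies at −2.22 and −1.48.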

How the data were processed

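RNA of FaDu or HSC3 cells was compared with control RNA of the same line on 4 Agilent 2-colour arrays. The authors deposited scanner output (Feature Extraction 9.5.3.1) holding spot and local background intensity as medians and means, not normalised, and a log10 ratio of Cy5 over Cy3 after spatial detrending and linear and LOWESS dye normalisation. The series' value table, also deposited, repeats them (largest difference 0). Marks of 0 or 1 that the authors deposited for brightness over background, saturation and outliers served as filters. Per the labels Cy5 was the miRNA transfectant. In the study's methods, medians less background and a global normalisation are described for another scanner and software (ScanArray, DNASIS), and the values used here follow those steps. The files name no genome build, so no probe coordinates are given.

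Each array's log2 ratio was centred by subtracting its median over probes with both channels well above background (0.58 and 0.65 for the miR-489 and miR-504 arrays of FaDu, 0.58 and 0.45 for those of HSC3). Cy3 was well above background for 58.2% to 59.2% of spots and Cy5 for 61.2% to 62.6%. Between 118 and 137 outlier spots per array were left out, and 0 were saturated. Repeated spots of a probe were averaged. limma 3.58.1 in R 4.3.3 was fitted to 20914 probes with Cy3 well above background on all 4 arrays, with the lines as replicates, 2 residual and 3.2 prior degrees of freedom (prior SD 0.135), and p-values were adjusted by Benjamini-Hochberg over all of them at 0.05. The fit was tested on simulated data. The 7 genes and all lists were chosen with earlier results of these data known. Named genes were all 7, the 2 lowest and 2 highest of each pathway list by mean log2 ratio after miR-489, the 5 nearest to CYP1B1, PTPN11, GAPDH and ACTB, and some that this rule names are not reported here. Genes carry the names printed on the array, or current symbols where the array's are older. The direct comparison of Cy5 signals and of controls was chosen after seeing the data.

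The cell line given in the labels paired the arrays (correlation of the FaDu deviations of miR-489 and miR-504 from the group means 0.136 over 20914 probes). All arrays were on 1 slide and in 1 scan, so no batch could be fitted. Figures were drawn with matplotlib 3.10.9.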

Additional observations from a re-analysis of the deposited data

Results flagged for a closer look

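The ARNT probe A_23_P550 moved in opposite directions in the 2 lines after both miRNAs. After miR-489 its log2 ratio was −0.14 in FaDu and 0.33 in HSC3. After miR-504 it was 0.17 in FaDu and −0.29 in HSC3. With 1 array per line and miRNA, the difference between the lines was not tested. The other ARNT probe had the same sign in both lines after each miRNA.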

How the results depend on the processing

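The mean log2 ratio of CYP1B1 after miR-489 (−2.36) kept its direction throughout. It was −1.66 with the normexp correction, −1.71 without background subtraction, −1.61 with normexp followed by loess, −2.55 with total-signal normalisation and −2.57 with the deposited log ratio, and from −2.43 to −2.29 with either line alone. Its Cy5 intensities after miR-489 (74.5 and 67.5, net of background) were marked well above background. They were still of the order of the background itself (median 57 on both arrays), which limits how exactly the size of the fall is known. CYP1B1 has 1 probe, so an average over probes gives no other value. Its fall after miR-504 (−0.51) was tested with a spread that includes the chosen miR-489 values. On that basis it was called at −0.52 with normexp followed by loess, −0.69 with total-signal normalisation and −0.51 with the cell line as a replicate block. The fall ran from −0.95 to −0.075 when 1 array was left out. By direct Cy5 signals its difference between the miRNAs was −2.28 in FaDu and −2.50 in HSC3.

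Of the 7 probes of the other genes, the 1 called between the miRNAs became 0 with normexp, without background subtraction, with normexp followed by loess, with total-signal normalisation, with no filter on dim probes, by direct Cy5 signals and when any array was left out (0 to 0). The 2 called after miR-489 became 4 with normexp followed by loess and 1 with no filter. The 4 called after miR-504 became 2 with no filter, 5 with the block, and 2 to 5 when 1 array was left out. The counts after miR-504 include CYP1B1. The 5 values at least 2-fold lower, of 36, became 2 with normexp, 3 without background subtraction, 2 with normexp followed by loess, 10 at 1.5-fold and 2 at 4-fold, and the 0 at least 2-fold higher became 3 at 1.5-fold. Among the 5 are the 2 CYP1B1 values after miR-489, which its choice fixed in advance, and the counts of 2 hold only these.

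Over the whole array the 223 probes called between the miRNAs became 663 with normexp, 498 without background subtraction, 347 with loess, 782 with normexp followed by loess, 390 with the deposited log ratio, 558 with the cell line as a replicate block, and 0 with no filter, by direct Cy5 signals or without any 1 array. The share of lower calls among them was 71.3%, against 57.2% with normexp and 60.8% without background subtraction. The 10379 called after miR-504 became 3469 without FaDu miR-504 and 4169 without HSC3 miR-504. With no filter, lower calls were 66.0% of those after miR-489 and 68.0% after miR-504. Total-signal normalisation moved the median log2 ratio by −0.21 to −0.17. Listed genes lower by 2-fold or more after miR-489 in FaDu and HSC3 numbered 3, and 7 with the deposited log ratio, 5 with the mean of a gene's probes and 13 at 1.5-fold. The block changed no other call of these genes than those of CYP1B1 after miR-504 and CYP1A1 after miR-489. The causes were not tested. A lone array was assumed to vary like the others.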
